A study of Homo sapiens with 9 samples.

Results

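MHC class I molecules show short peptides from inside a cell to CD8 T cells and to natural killer cells. Here 9 genes of this pathway were followed: the heavy chains HLA-B, HLA-C, HLA-E and HLA-F, the light chain B2M, the peptide transporter subunits TAP1 and TAP2, the loading factor TAPBP (tapasin) and the transcriptional activator NLRC5. They were chosen by symbol from a list of class I presentation genes, and all 9 were found among the 56541 genes of the deposited table. The cells were MOLM-13, an acute myeloid leukaemia line with a KMT2A fusion. All were treated with doxycycline at 200 ng/µL for 4 days, so the control cells carry that treatment as well. There were 3 groups of 3 libraries of total RNA: cells expressing a control hairpin (shCONTROL) and cells whose hairpin targets the nuclear RNA-binding protein BCLAF1 (shBCLAF1), both by RNA-seq, and RNA recovered by immunoprecipitation of BCLAF1 from shCONTROL cells (RIP). For RNA-seq 2000000 cells were taken per sample and for the RIP 15000000. All libraries carry the same batch label. The labels do not say that replicates came from separate cultures, so p-values measure only the spread between these samples. All results come from 1 cell line.

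A class I molecule is a heavy chain held together by B2M and filled with a peptide. The proteasome makes the peptides, TAP1 and TAP2 together pump them into the endoplasmic reticulum, and tapasin holds the empty heavy chain at the transporter until a peptide fits. HLA-B and HLA-C are classical, highly variable heavy chains, whereas HLA-E and HLA-F vary little. HLA-E carries mainly leader peptides of other class I chains and is read by the CD94/NKG2A receptor of natural killer cells. NLRC5 has no DNA-binding domain of its own. It is recruited to class I promoters through factors bound at the W/S, X1, X2 and Y boxes, and interferon adds signals through an interferon-stimulated response element.

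The sequences before the start sites show what these genes share that the choice by symbol did not use. RefSeq (GRCh38.p14) gave a window for 7 of the 9 genes, and HLA-E and NLRC5 had none. The 250 bases before the start are printed 5′ to 3′ for the most alike pair of heavy chains and for the light chain (B2M), 1 transporter subunit (TAP1) and the loading factor (TAPBP). Capitals mark 4 motifs sought on both strands: the core of the interferon-stimulated response element (GAAA repeated after any 2 bases), the X2 box core (TGACG), the CCAAT box (CCAAT, bound by NF-Y at the Y box) and the NF-kB consensus. HLA-B lies on the minus strand at chr6:31357180-31357429, HLA-C on the minus strand at chr6:31272093-31272342, B2M on the plus strand at chr15:44711267-44711516, TAP1 on the minus strand at chr6:32853705-32853954 and TAPBP on the minus strand at chr6:33314079-33314328.
HLA-B: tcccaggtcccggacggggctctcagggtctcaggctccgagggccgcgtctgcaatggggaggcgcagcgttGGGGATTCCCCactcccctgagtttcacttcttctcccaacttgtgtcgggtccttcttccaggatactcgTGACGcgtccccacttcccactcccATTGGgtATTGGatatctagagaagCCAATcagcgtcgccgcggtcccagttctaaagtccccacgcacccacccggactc
HLA-C: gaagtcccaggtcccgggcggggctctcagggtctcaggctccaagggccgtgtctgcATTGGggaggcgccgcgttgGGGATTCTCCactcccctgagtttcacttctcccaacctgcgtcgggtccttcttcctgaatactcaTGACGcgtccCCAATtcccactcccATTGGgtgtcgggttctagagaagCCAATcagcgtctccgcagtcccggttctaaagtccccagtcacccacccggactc
B2M: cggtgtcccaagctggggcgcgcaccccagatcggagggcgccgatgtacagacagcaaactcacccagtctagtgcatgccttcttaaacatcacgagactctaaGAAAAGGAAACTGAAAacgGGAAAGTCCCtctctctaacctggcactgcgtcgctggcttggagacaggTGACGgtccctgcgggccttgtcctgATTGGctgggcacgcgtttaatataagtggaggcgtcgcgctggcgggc
TAP1: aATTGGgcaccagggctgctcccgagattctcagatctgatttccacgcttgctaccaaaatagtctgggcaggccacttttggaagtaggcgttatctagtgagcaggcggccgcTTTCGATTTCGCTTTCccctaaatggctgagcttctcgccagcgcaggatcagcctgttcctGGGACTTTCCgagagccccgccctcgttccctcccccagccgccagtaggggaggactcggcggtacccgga
TAPBP: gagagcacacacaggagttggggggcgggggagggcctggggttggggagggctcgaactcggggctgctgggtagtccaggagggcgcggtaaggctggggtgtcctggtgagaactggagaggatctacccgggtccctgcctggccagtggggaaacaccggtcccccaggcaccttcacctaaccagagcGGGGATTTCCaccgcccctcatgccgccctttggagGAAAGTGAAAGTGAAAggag

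The HLA-B and HLA-C windows were 89.0% identical over 254 aligned columns, and both held an X2 box core (106 to 102 bases before the start in HLA-B, 105 to 101 in HLA-C) and a forward CCAAT box 56 to 52 bases before the start. HLA-F was 80.4% identical to HLA-B and 78.7% to HLA-C. The other pairs of windows had 47.3% to 51.9% identity. The response element core was found in 5 of the 7 windows (HLA-F, B2M, TAP1, TAP2 and TAPBP), where 3.02% of 35116 RefSeq windows of this length held it. B2M, TAP1 and TAPBP each held 2 overlapping copies, 144 to 129, 134 to 119 and 20 to 5 bases before the start. The X2 box core was found in 4 of the 7 (21.2% of all windows), the CCAAT box in 5 (32.0%) and the NF-kB consensus in 5 (5.21%), where it overlapped the response element in none. A match is a stretch of letters and not a measured site. Only exact matches were sought, so a window without a match may still hold a variant of the motif.

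The 9 libraries held 25819144 to 36635268 estimated counts. BCLAF1 itself stood at 35.2% of shCONTROL in shBCLAF1 and at 336% in the RIP. The cells had the leukocyte gene PTPRC and the myeloid genes SPI1, CD33 and FLT3 at means of 93.7 to 326 CPM (counts per 1000000, scaled by TMM) in shCONTROL. At or under 3 counts in every library were 3 of 5 B-cell markers (MS4A1, CD79B and PAX5), 4 of 6 T-cell and NK-cell markers (CD2, CD3E, CD3G and KLRD1) and the erythroid markers HBB and KLF1. EPOR, another erythroid marker, ranged from 9.79 to 19.3 CPM over all libraries, and HBA1 was at 0 counts in all 6 RNA-seq libraries and held 66, 35 and 77 counts in RIP replicates 1, 2 and 3 (edgeR adjusted p 0.00183), a gene with a near-identical copy whose reads may be split in counting. Its part in the class I values was not tested. Within the T-cell and NK-cell list NCAM1 was lower after knock-down (log2 fold change -0.33) and higher in the RIP (0.47). That list summed to 111 to 117 CPM for shCONTROL, 82.3 to 96.8 for shBCLAF1 and 141 to 169.5 for RIP libraries, and its part in the class I values was not tested. The monocyte marker CD14 was likewise at or under 3 counts in every library. Levels of different genes are not compared, because no transcript lengths were used. In RNA from a whole culture, fewer cells of a type and less RNA per cell cannot be told apart.

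**Figure D1:**
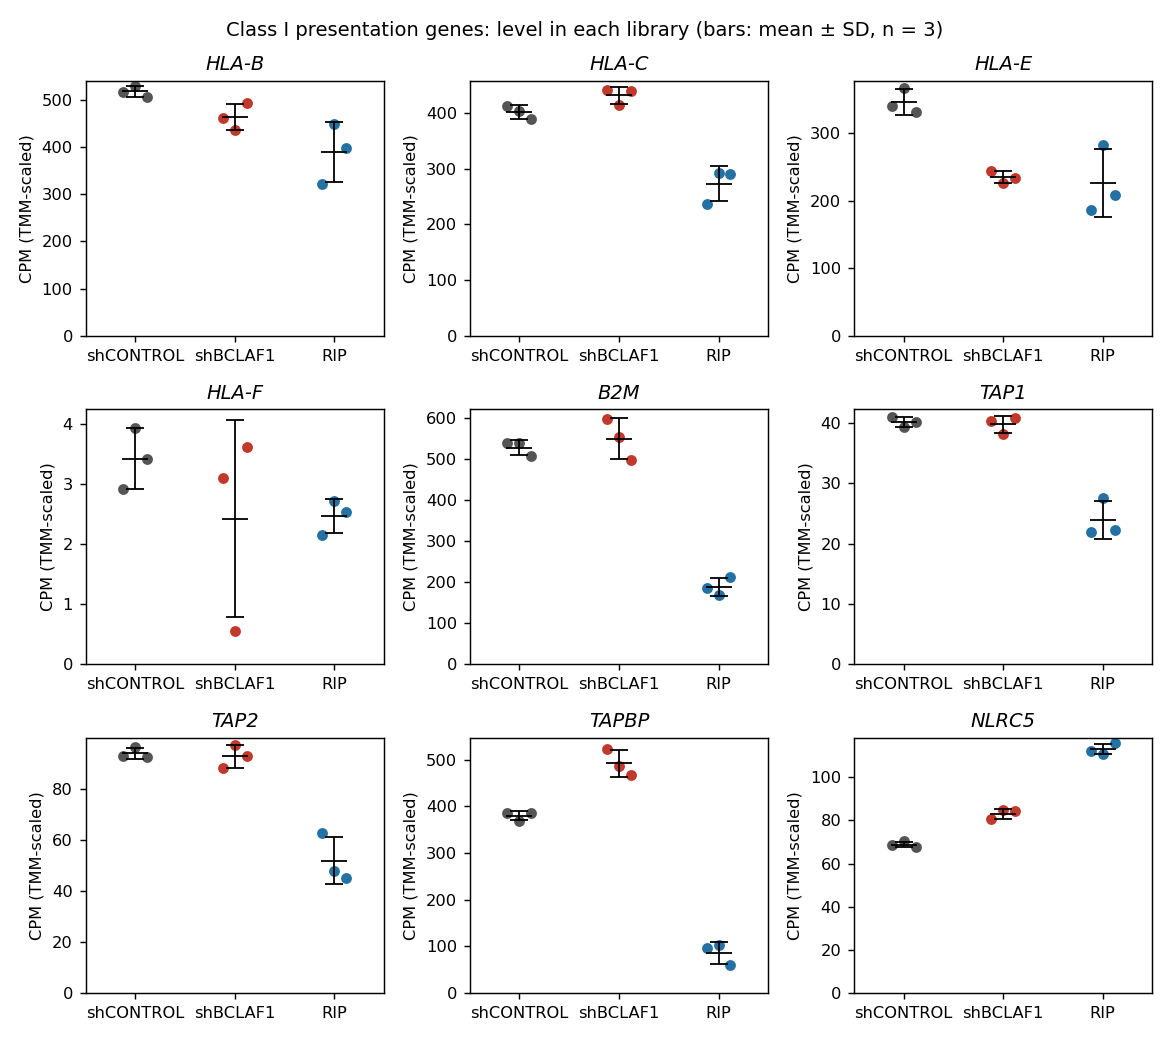
Level of each of the 9 class I genes in CPM (TMM-scaled, linear axis from 0) in the shCONTROL, shBCLAF1 and RIP libraries, with a point per library and bars for mean ± SD (n = 3). HLA-E is lower and TAPBP and NLRC5 are higher in shBCLAF1 than in shCONTROL, and in the RIP libraries 8 genes lie under their shCONTROL values and NLRC5 above.

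The knock-down comparison asks what changes in class I mRNAs when BCLAF1 is depleted. After knock-down HLA-E fell, TAPBP and NLRC5 rose, and the other 6 genes did not pass the test. Calls were made with edgeR's quasi-likelihood F-test over all 16961 genes that passed the filter, at 0.05 after Benjamini-Hochberg adjustment. All 9 class I genes passed the filter on low counts, and 3 of 9 were called, while 32.3% of all genes tested were called. The class I genes were therefore called about as often as genes in general. In single directions, 2 were higher (15.5% of all genes) and 1 lower (16.9%). Their median log2 fold change was -0.010, and that of all genes was 0.017.

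HLA-E, the ligand of CD94/NKG2A, measured 340, 367 and 330 CPM in shCONTROL replicates 1, 2 and 3 and 244, 226 and 234 CPM in shBCLAF1 replicates 1, 2 and 3. All shBCLAF1 libraries thus lay under all shCONTROL libraries. Its log2 fold change was -0.55 (SE 0.05, edgeR adjusted p 8.46e-04), which is 67.9% of the control mean, and it passed in all 11 alternatives (adjusted p up to 0.0378). Of all genes tested, 10.5% had a lower fold change.

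TAPBP encodes tapasin, which ties the heavy chain to the peptide transporter. It measured 385.5, 369 and 386 CPM in the shCONTROL libraries, in the order of replicates 1, 2 and 3, and 523.5, 487 and 467 CPM in shBCLAF1. The groups did not overlap. Its log2 fold change was 0.38 (SE 0.05, edgeR adjusted p 0.00277), or 130% of the control mean. The call was lost when all 9 libraries were fitted together (adjusted p 0.229) and held in the other 10 alternatives.

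NLRC5, the activator of class I transcription, measured 68.4, 70.2 and 67.7 CPM in shCONTROL and 80.5, 84.8 and 84.2 CPM in shBCLAF1. Its groups did not overlap either, and the spread within each was small. Its log2 fold change was 0.28 (SE 0.04, edgeR adjusted p 0.00349), or 121% of the control mean, and it passed in all 11 alternatives (adjusted p up to 0.0208).

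The classical heavy chains did not pass. HLA-B measured 517, 529 and 506 CPM in shCONTROL and 462, 436 and 492 in shBCLAF1, with a log2 fold change of -0.16 (SE 0.05, edgeR adjusted p 0.0602). HLA-C measured 413, 403 and 389 CPM in shCONTROL and 441.5, 414 and 438.5 in shBCLAF1, with a log2 fold change of 0.11 (SE 0.04, edgeR adjusted p 0.101). In both genes the groups lay apart, on opposite sides of the control. This separation of groups was seen in 5 of the 9 class I genes (HLA-B, HLA-C, HLA-E, TAPBP and NLRC5) and in 49.3% of all genes tested. HLA-B passed with DESeq2 (adjusted p 0.0102) and without shBCLAF1 replicate 3 (0.0186), and HLA-C passed when libraries were scaled by total counts (0.0276). Heavy chain genes are alike in sequence, so reads may have been split between them in counting, and their single values are uncertain.

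The light chain and the transporter did not pass and their groups overlapped. B2M measured 538, 539 and 507 CPM in shCONTROL and 596, 554 and 497 in shBCLAF1 (log2 fold change 0.061, SE 0.07, edgeR adjusted p 0.578). TAP1 ranged from 39.2 to 41.0 CPM in shCONTROL and from 38.1 to 40.8 in shBCLAF1 (log2 fold change -0.010, SE 0.05). TAP2 ranged from 92.3 to 96.5 CPM in shCONTROL and from 88.0 to 97.0 in shBCLAF1 (log2 fold change -0.014, SE 0.05). The signs of TAP1 and TAP2 turned positive under total counts (0.041 and 0.037), and that of B2M turned without shBCLAF1 replicate 1 (-0.0022). HLA-F, a non-classical heavy chain of low level, held 103, 133 and 123 counts in shCONTROL and 118, 21 and 133 in shBCLAF1. Its log2 fold change of -0.48 (SE 0.60, edgeR adjusted p 0.600) rested on shBCLAF1 replicate 2 and was -0.024 without it.

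**Figure D2:**
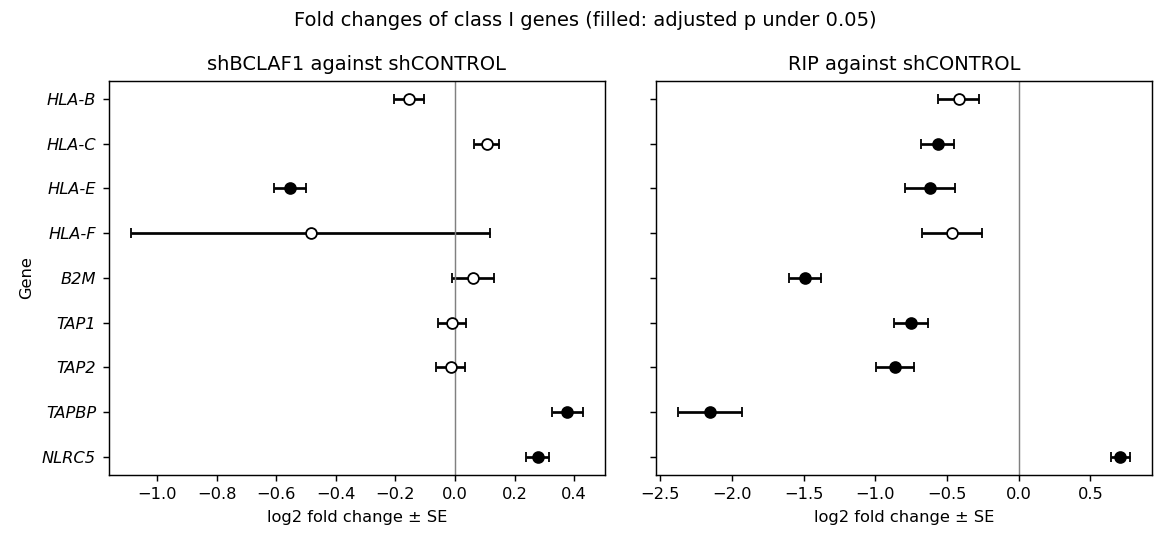
Log2 fold change ± SE of the 9 class I genes for shBCLAF1 against shCONTROL (left) and RIP against shCONTROL (right), with filled points at an adjusted p under 0.05 (edgeR, 3 libraries a group). After knock-down HLA-E (-0.55), TAPBP (0.38) and NLRC5 (0.28) are filled, and in the RIP all but HLA-B and HLA-F are filled, with TAPBP (-2.15) lowest and NLRC5 (0.71) alone above 0.

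The RIP comparison asks which class I mRNAs are recovered with BCLAF1 above or below their share of total RNA in the shCONTROL RNA-seq libraries. Those libraries are separate samples from the RIP. NLRC5 was recovered above its shCONTROL level, and TAPBP, B2M, TAP2, TAP1, HLA-E and HLA-C below theirs. At an adjusted p under 0.05, 7 of the 9 were called, 6 lower and 1 higher, while 49.2% of the 16727 genes tested were called, 24.7% lower and 24.6% higher. The median log2 fold change was -0.62 over the 9 class I genes and -0.049 over all genes. In all 9 class I genes the RIP and shCONTROL groups did not overlap, which held for 67.0% of all genes. The reference was total RNA and the labels name no mock precipitation, so a low value here does not show that an RNA was unbound. The RIP and the knock-down share the shCONTROL libraries, and their values are therefore given side by side with no correlation.

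TAPBP stood lowest. It measured 96.5, 102 and 59.2 CPM in RIP replicates 1, 2 and 3, where shCONTROL had 369 to 386. RIP replicate 3 was the lowest of the libraries. The log2 fold change was -2.15 (SE 0.22, edgeR adjusted p 7.42e-04), or 22.6% of the control mean, and 4.75% of all genes tested were lower still. Without RIP replicate 3 it was -1.94.

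B2M came next, with 185.5, 169 and 212 CPM in the RIP libraries and 507 to 539 in shCONTROL. Every RIP library lay under every control library. For B2M the log2 fold change was -1.49 (SE 0.11, edgeR adjusted p 3.14e-04), or 35.8% of the control mean. TAPBP and B2M were the only class I genes with a log2 fold change of -1 or lower and an adjusted p under 0.05, a rule met by 13.5% of all genes tested.

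Both transporter subunits were lower. TAP2 measured 62.5, 47.8 and 45.2 CPM in the RIP (log2 fold change -0.86, SE 0.13, edgeR adjusted p 0.00297). TAP1 measured 21.9, 27.5 and 22.2 CPM (log2 fold change -0.75, SE 0.12, edgeR adjusted p 0.00340). The 2 subunits work as a pair. Their order among the RIP libraries differed, with TAP2 highest in replicate 1 and TAP1 highest in replicate 2.

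The heavy chains lay closer to the control. HLA-C measured 236, 292 and 291 CPM in the RIP (log2 fold change -0.56, SE 0.12, edgeR adjusted p 0.00840). HLA-E measured 187, 282 and 208 CPM (log2 fold change -0.62, SE 0.17, edgeR adjusted p 0.0271), and its RIP values overlapped those of shBCLAF1. The call of HLA-E was lost without any 1 of the shCONTROL libraries (adjusted p 0.0766, 0.0883 and 0.0688 without replicates 1, 2 and 3), without RIP replicate 1 (0.0535) and without RIP replicate 3 (0.0708). HLA-B measured 321, 448 and 398 CPM (log2 fold change -0.42, SE 0.14, edgeR adjusted p 0.0536). It passed with DESeq2 (adjusted p 0.0147), under total counts (0.00915), in the fit of all 9 libraries (0.0202) and without RIP replicate 2 (0.0144). HLA-F held 55, 77 and 73 counts, and its log2 fold change of -0.46 (SE 0.21, edgeR adjusted p 0.116) did not pass under any alternative.

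NLRC5 was the exception among the 9. It measured 112, 111 and 116 CPM in the RIP, where shCONTROL had 67.7 to 70.2, and thus all RIP libraries lay above. Its log2 fold change was 0.71 (SE 0.07, edgeR adjusted p 5.67e-04), or 164% of the control mean, and 22.4% of all genes tested were higher. The order of its levels was shCONTROL, shBCLAF1, RIP, and no neighbours in that order overlapped. For TAPBP the order was RIP, shCONTROL, shBCLAF1, also with no overlap.

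Ratios of counts within a library do not depend on how libraries are scaled. The 4 heavy chains summed to 2.37, 2.42 and 2.42 times the B2M counts in shCONTROL replicates 1, 2 and 3. For shBCLAF1 the ratio was 1.93, 1.94 and 2.35, and for the RIP it was 4.02, 6.06 and 4.24. Each RIP library held more heavy chain per B2M than any RNA-seq library. The shBCLAF1 libraries all lay under shCONTROL, with replicate 3 close to it. The next ratios were picked after the values were seen. HLA-E to HLA-B was 0.668 ± 0.0228 in the shCONTROL libraries, was lower in every shBCLAF1 library at 0.508 ± 0.0280 and was 0.578 ± 0.0536 for RIP (SD, n = 3 each). HLA-C to HLA-B was 0.776 ± 0.0196, 0.932 ± 0.0353 and 0.706 ± 0.0481 in the same order. These ratios were not tested, and reads may be split between the heavy chains. TAPBP to the sum of TAP1 and TAP2 was 2.84 ± 0.105 for shCONTROL, 3.73 ± 0.314 for shBCLAF1 and 1.12 ± 0.238 for RIP libraries. TAP1 to TAP2 was 0.427 ± 0.0181 and 0.429 ± 0.0334 in the RNA-seq groups and 0.351, 0.575 and 0.492 in RIP replicates 1, 2 and 3.

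**Figure D3:**
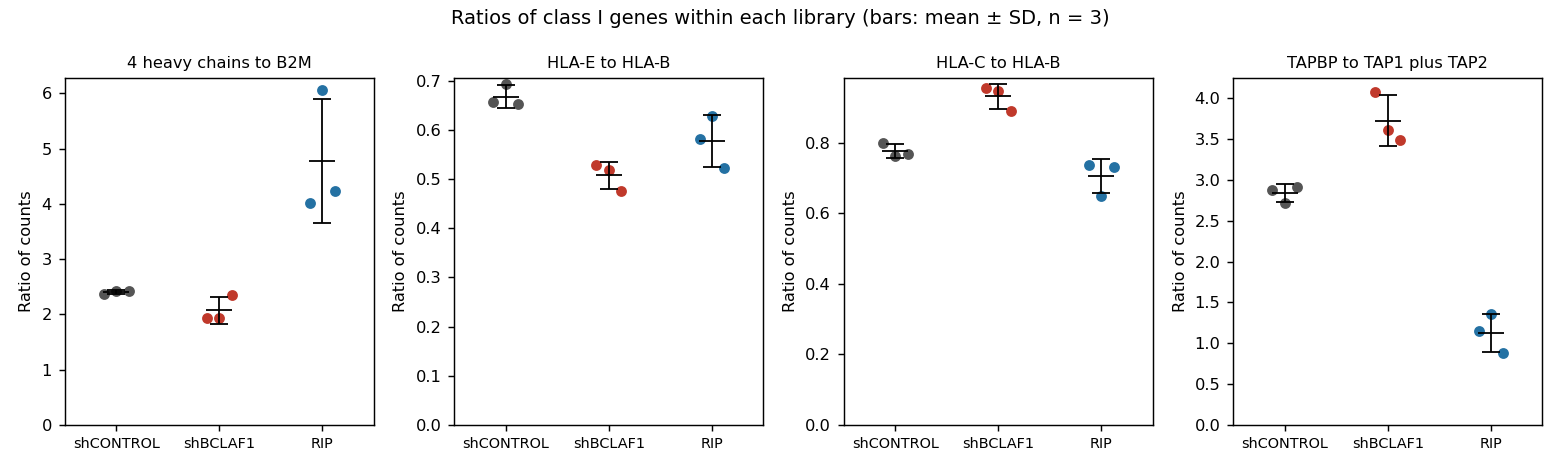
Ratios of estimated counts within each library (linear axes from 0; a point per library, bars for mean ± SD, n = 3). The heavy chains per B2M are highest in the RIP (4.02 to 6.06), HLA-E per HLA-B is lower and HLA-C per HLA-B higher in every shBCLAF1 library than in shCONTROL, and TAPBP per transporter count is lowest in the RIP.

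Over the 9 libraries, log2 CPM of NLRC5 ran against that of the other class I genes, with Pearson's r from -0.91 (TAP1) to -0.22 (HLA-F). Among the 7 genes other than NLRC5 and HLA-F, r ran from 0.44 (HLA-E with TAP2) to 0.96 (TAP1 with TAPBP). These values describe 9 points in 3 groups, with RIP and RNA-seq libraries pooled, and share their scaling. The RIP fold changes given above have the same opposite signs, so r is not a separate result. In the knock-down alone TAPBP (log2 fold change 0.38) rose with NLRC5 (0.28), HLA-E fell (-0.55) and the others were not called. Of 12462 other genes with a mean of at least 50 counts, those most like the mean of the 9 class I genes were TRAPPC6A (r = 0.985), the pseudogene RPL21P80 (0.985), SPINT1 (0.977), FANCF (0.976) and PMEPA1 (0.976). Their RIP log2 fold changes ran from -3.20 to -1.01, a sign that the choice by likeness fixes. Those most like NLRC5 were ZNF23 (r = 0.996), PPP1R12A (0.994) and the pseudogene GTF2IP4 (0.992), with RIP log2 fold changes of 0.88, 0.88 and 1.67 and knock-down values of 0.38, 0.39 and 0.63, which the same choice bears on.

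Gene span moved with RIP recovery over the whole table. Among 13871 tested genes with a RefSeq span, Spearman's rho of span and RIP log2 fold change was 0.201, a description across genes that share libraries. The median RIP log2 fold change was -0.29, -0.14, 0.031 and 0.28 in 4 groups of 3467 or 3468 genes, ordered from the shortest to the longest. NLRC5 spans 93964 bases and was the only class I gene in the longest group. HLA-B (3305 bases), HLA-C (3344) and HLA-E (4686) fell in the shortest, and B2M (6629), TAP1 (8496), TAPBP (14385), HLA-F (15099) and TAP2 (16909) in the next. TAPBP and B2M lay 2.01 and 1.35 under the median of their group on the log2 scale, and NLRC5 lay 0.43 above its own. The part of span in these values was not tested. After knock-down rho was -0.0070.

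**Figure D4:**
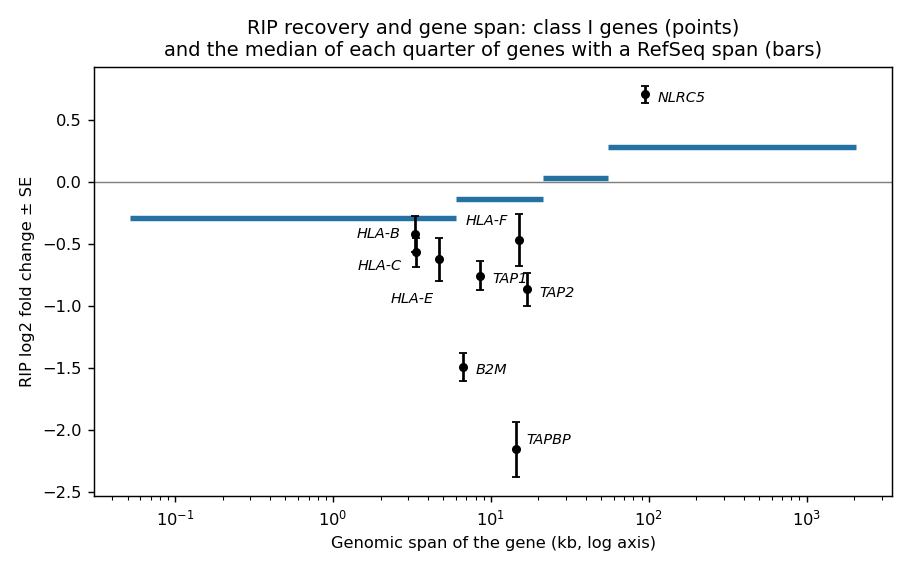
RIP log2 fold change ± SE of the 9 class I genes (points) against the genomic span of the gene in kb (log axis), with bars for the median of each of 4 equal groups, by span, of the 13871 tested genes with a RefSeq span. The bars rise from -0.29 to 0.28, NLRC5 is the one class I gene in the longest group, and TAPBP and B2M lie farthest under their bar.

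Genes beside or across the class I genes did not always share their RIP direction. HLA-B, HLA-C, HLA-E, HLA-F, TAP1, TAP2 and TAPBP lie on chromosome 6, B2M on chromosome 15 and NLRC5 on chromosome 16. B2M starts 127 bases from PATL2, a gene on the opposite strand with a RIP log2 fold change of 1.69 (edgeR adjusted p 0.00128), where B2M had -1.49. TAP1 lies between 2 immunoproteasome genes, PSMB8 at 530 bases and the oppositely oriented PSMB9 at 488, which were lower in the RIP as TAP1 was (-1.43 and -1.15). PSMB8-AS1, which overlaps TAP1 on the other strand, was higher (0.56, edgeR adjusted p 0.0307) and fell by 0.36 on the log2 scale after knock-down (edgeR adjusted p 0.0235). RGL2, which overlaps TAPBP on the same strand, and ZBTB22, 340 bases away, were higher in the RIP (0.58 and 0.82, edgeR adjusted p 0.0220 and 0.00396), where TAPBP had -2.15. The libraries were stranded, but whether the counting used strand is not given in the sources used here. Reads of TAP1 and PSMB8-AS1 may therefore have been exchanged. TAPBP and RGL2 share a strand, so reads of their overlap may have been exchanged in either case. HERPUD1, the nearest tested gene before NLRC5, fell by 0.99 on the log2 scale after knock-down, where NLRC5 rose.

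The rest of the pathway was read from lists of other class I genes. For every list the counts stand beside the share of all genes tested that was called, which was 15.5% higher and 16.9% lower after knock-down and 24.6% higher and 24.7% lower in the RIP. Nothing particular to a list was tested. Of 7 genes of peptide loading and trimming, 3 were higher and 1 lower after knock-down. The chaperone CALR, a partner of tapasin in the loading complex, had 978, 745 and 985 CPM in shCONTROL and 1468, 1406 and 1526 in shBCLAF1 (log2 fold change 0.70, edgeR adjusted p 0.00498). The disulfide isomerase PDIA3 (0.36) and the tapasin relative TAPBPL (0.32) were higher as well. The chaperone CANX, which holds new heavy chains, was lower (-0.27). In the RIP CALR (1.28) and CANX (1.16) were above the control and the trimming peptidase ERAP2 (-0.59) below. PDIA3 (-0.27) and TAPBPL (-0.34) did not pass there.

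Of the 5 genes of the immunoproteasome and its PA28 activator, PSME2 (0.49), PSMB10 (0.23) and PSME1 (0.21) rose after knock-down and none fell, where 15.5% of all genes rose and 16.9% fell. None of the 3 passed when all 9 libraries were fitted together. In the RIP the catalytic subunits PSMB8 (-1.43), PSMB10 (-1.21) and PSMB9 (-1.15) were lower, and the PA28 subunit PSME1 was higher (1.21, edgeR adjusted p 0.0147). PSME1 measured 133, 134 and 266 CPM in RIP replicates 1, 2 and 3, so replicate 3 stood apart, and its call was lost without any 1 of the shCONTROL libraries (adjusted p 0.0519, 0.0542 and 0.0562).

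Among the transcription factors listed for class I genes, RFXAP, a subunit of the RFX complex on the X1 box, fell by 0.96 on the log2 scale after knock-down (edgeR adjusted p 0.00125). CREB1, which can bind X2 boxes, and the NF-Y subunit NFYC fell by 0.27 and 0.25. In the RIP CREB1 (0.67) and NFYC (0.95) were higher, and RFXANK (-0.87), RFXAP (-0.61) and NFYA (-0.39) were lower. The class II activator CIITA, a relative of NLRC5, had log2 fold changes of 0.023 after knock-down and 0.27 in the RIP and passed in neither. The call of CREB1 after knock-down was lost without shCONTROL replicate 1 (adjusted p 0.0629) or 2 (0.0565), and that of RFXAP in the RIP without shCONTROL replicate 2 (0.0583). NFYC lost its knock-down call in 7 of 11 alternatives and NFYA its RIP call in 4 of 11, all 4 with 1 library left out.

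Of the 4 interferon gamma receptor and kinase genes, JAK2 rose from a mean of 42.1 to 70.4 CPM (log2 fold change 0.74, edgeR adjusted p 3.85e-04) and IFNGR1 from 66.1 to 98.5 CPM (0.58, edgeR adjusted p 9.68e-04). In the RIP JAK1 was higher (0.91), and IFNGR1 (-0.91) and IFNGR2 (-0.70) were lower. Of 14 interferon-stimulated genes, 11 were tested after knock-down, and STAT2 rose (0.84) while IFIT2 and IFIT3 fell by 1.06 and 0.73 on the log2 scale. IFIT3 lost its call without shBCLAF1 replicate 2 (adjusted p 0.0511). In the RIP 12 were tested, and 5 were higher, among them STAT2 (0.81), IFIT2 (1.21) and GBP2 (1.01), and 2 lower, ISG15 (-1.28) and IFI6 (-1.67), against 24.6% higher and 24.7% lower over all genes. The list thus held members on both sides in each comparison. Of the myeloid markers, 3 of the 9 tested were higher and 1 lower after knock-down (15.5% and 16.9% of all genes), and the summed level of all 10 was 1728 to 1809 CPM in shCONTROL and 3464 to 3939 in shBCLAF1 (1332 to 1422 in the RIP). Most of the difference between the shCONTROL and shBCLAF1 sums lay in LYZ, the lysozyme gene. LYZ had means of 728 CPM in shCONTROL, 2637 in shBCLAF1 and 46.75 for RIP. The median log2 fold change of the 9 tested myeloid markers was 0.00054 after knock-down and 0.099 in the RIP. Their part in the class I values was not tested.

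Of 24 genes called after knock-down in the lists, 13 were lost when all 9 libraries were fitted together, among them CALR (adjusted p 0.0536), PDIA3 (0.157), TAPBPL (0.135), CANX (0.109), PSME2 (0.0931), PSMB10 (0.366), PSME1 (0.705) and NFYC (0.292). In that fit 0 of the 33 genes called in the RIP were lost. JAK2, IFNGR1, RFXAP, STAT2 and IFIT2 kept their knock-down call in all 11 alternatives. TAPBPL also lost its call in the blocked fit (0.0537) and without shCONTROL replicate 3 (0.0528).

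**Figure D5:**
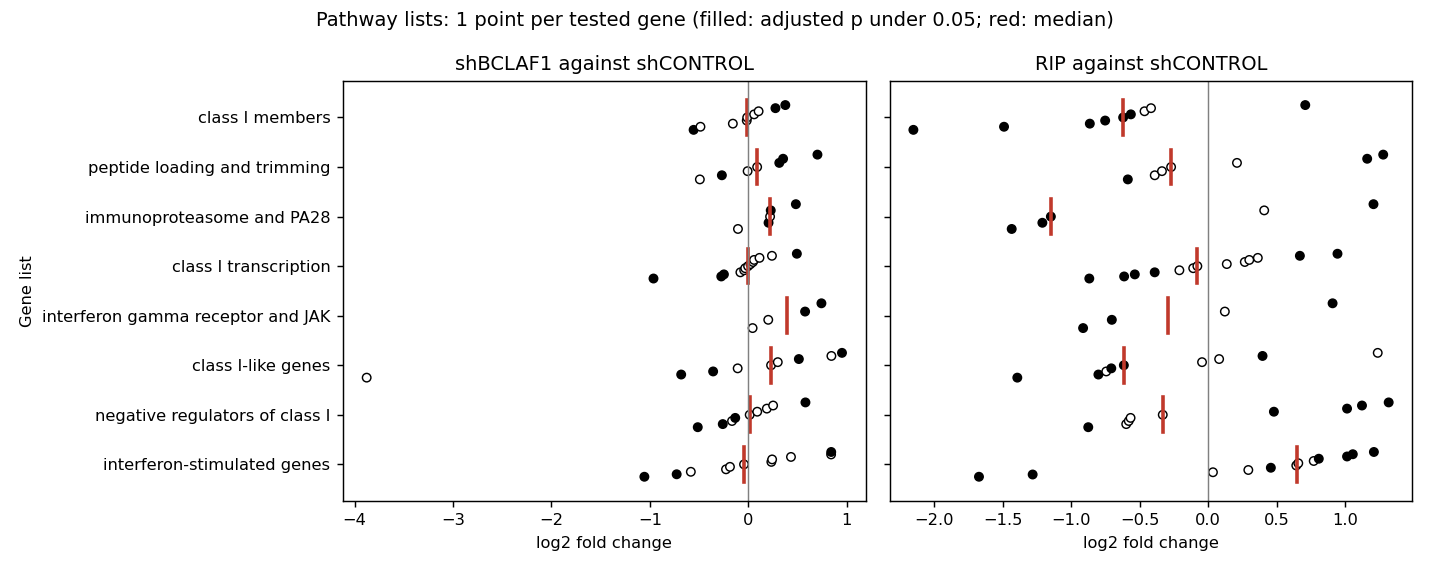
Log2 fold changes of the 9 class I genes and of the tested genes of 7 pathway lists for shBCLAF1 against shCONTROL (left) and RIP against shCONTROL (right), with a point per gene, filled at an adjusted p under 0.05, and a red line at each median. The immunoproteasome list has a knock-down median of 0.22 and a RIP median of -1.15, and the interferon-stimulated genes have a RIP median of 0.65.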

How the data were processed

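RNA was measured in 9 libraries of MOLM-13 cells, 3 each of shCONTROL, shBCLAF1 and RIP, grouped by their titles. The authors deposited 1 table of estimated counts (expected counts) per gene, with no normalization and whole-number values. The submitters' processing notes name STAR 2.7.11b, StringTie 2.2.3 and the build hg38. Which step made the counts, and with which annotation, is not given in the sources used here. One entry that names no gene was left out. It held 0% of RIP replicate 1 and 2.18% to 3.75% of every other library. Depth was 25819144 to 36635268 estimated counts, so 3 counts equal 0.0819 to 0.116 CPM, which covers counting error only.

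Each contrast was fitted over the whole table on its own 6 libraries with edgeR 4.0.16 in R 4.3.3 (default low-count filter, TMM, prior count 2, quasi-likelihood test, group as the only term, Benjamini-Hochberg, threshold 0.05). SE is the log2 fold change over the root of F. CPM use 1 TMM scaling of all 9 libraries. The procedure was tested on simulated data. Alternatives were DESeq2 1.42.0, total counts, no filter, a fit of all 9 libraries, a replicate block, a minimum log2 fold change of 1 in the RIP and each library left out. All 9 class I genes were named, and of each list up to 3 per direction with the smallest adjusted p, plus nearest tested neighbours, the 5 genes most like the class I mean and the 3 most like NLRC5. The class I genes and lists were chosen with earlier results of these data known. CD14, CIITA, PTPRC, NCAM1 and the list genes named only for a lost call or a level were added outside that rule. Some list genes are not reported here.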

Additional observations from a re-analysis of the deposited data

How the results depend on the processing

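Of the 198 values of the 9 class I genes under alternatives (11 in each contrast), 178 kept their direction and side of the threshold, 6 lost the call, 7 gained it and 7 changed sign. Those that changed sign were uncalled genes after knock-down: TAP1 and TAP2 under total counts (0.041 and 0.037) and, with 1 library left out, B2M (-0.0022 to 0.13), TAP1 (-0.028 to 0.018) and TAP2 (-0.051 to 0.022). One fit of all 9 libraries called 2447 genes after knock-down in place of 5484. In the RIP a minimum log2 fold change of 1 left 4099 of 8231 genes and 2 of the 7 class I genes, TAPBP and B2M. Total counts shifted the median of all genes by -0.12 in the RIP, and called 3241 genes higher and 2487 lower after knock-down (main 2625 and 2859) and 3402 higher and 4550 lower in the RIP (main 4107 and 4124). In the fit with a replicate block, 4809 genes were called after knock-down and 6504 in the RIP, and no class I gene changed its call. Deviations of same-numbered libraries correlated at -0.0029, 0.098 and -0.0021 (knock-down) and -0.036, 0.0043 and 0.0011 (RIP), so the numbers gave no sign of pairing. Without HLA-F the mean log2 ratio of heavy chains to B2M changed little. It went from 1.264 to 1.26 (shCONTROL), 1.046 to 1.043 (shBCLAF1) and 2.23 to 2.226 (RIP). With 1 library left out, the shCONTROL mean ran from 1.258 to 1.275 and the shBCLAF1 mean from 0.9527 to 1.095. The RIP mean then ran from 2.046 to 2.341. Leaving out 1 of 3 libraries cannot move their mean by 1 SD, so the SD gave no test of stability here. HLA-F, with 21 to 133 counts, had the widest SE after knock-down (0.60), and TAPBP in the RIP (0.22). The causes of these shifts were not tested.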

Other observations

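Class I-like genes were not covered above. After knock-down, 9 of the 10 were tested, 2 rose and 2 fell, near the shares over all genes (15.5% higher and 16.9% lower). CD1D, which presents lipids to NKT cells, measured 17.6, 15.2 and 16.4 CPM in shCONTROL and 30.5, 33.8 and 30.8 in shBCLAF1, and every shBCLAF1 library lay above every control (log2 fold change 0.95, SE 0.08, edgeR adjusted p 5.42e-04). The neonatal Fc receptor gene FCGRT rose by 0.52. That call did not hold in the blocked fit (adjusted p 0.0636) or when shCONTROL replicate 1 (0.0641), 2 (0.0608) or 3 (0.0814) was left out. The NKG2D ligand MICB fell by 0.68 on the log2 scale (edgeR adjusted p 0.00165). MR1, which presents vitamin B metabolites, fell by 0.36 and lost its call without shBCLAF1 replicate 2 (adjusted p 0.0619). ULBP1, another NKG2D ligand, held 258, 300 and 241 counts in shCONTROL and 53, 0 and 0 in shBCLAF1 and did not pass (edgeR adjusted p 0.0769), and a 0 in this table need not mean few reads. In the RIP 9 were tested and 4 were lower, among them FCGRT (-1.39), MR1 (-0.71) and ULBP3 (-0.80). MICB (0.40, edgeR adjusted p 0.0129) was the 1 gene called higher, where 24.7% of all genes tested were lower and 24.6% higher. HLA-G was also lower (-0.615, edgeR adjusted p 0.0433), a call lost in 8 of 11 alternatives. MICB did not pass under total counts (adjusted p 0.0711) or without shCONTROL replicate 2 (0.0586) or 3 (0.0611). Leaving out shCONTROL replicate 1 ended the call of ULBP3 (adjusted p 0.0545).

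Among 10 genes known to restrain class I, SUSD6 rose after knock-down from a mean of 29.4 to 44.0 CPM (log2 fold change 0.58, edgeR adjusted p 9.29e-04), a call lost in the fit of all 9 libraries (0.0513). Its partners in class I degradation had smaller values, 0.25 for TMEM127 (not called) and -0.13 for WWP2, whose call was lost in 8 of 11 alternatives. SUZ12 and EZH2 of the PRC2 complex had -0.26, a call lost in the fit of all 9 libraries (0.260), and -0.16, not called. TRAF3 had -0.51 (edgeR adjusted p 0.0478), a call lost in 8 of 11 alternatives. Of the 9 tested after knock-down, 1 was higher and 3 were lower (15.5% and 16.9% of all genes). In the RIP 4 of 9 were higher, among them EZH2 (1.32), TRAF3 (1.12) and WWP2 (1.01). SPPL3 (-0.87) was the 1 gene called lower there (24.6% higher and 24.7% lower over all genes). Leaving out shCONTROL replicate 2 ended the call of SPPL3 (adjusted p 0.0537).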
